A study of Mus musculus with 2 samples.

Results

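The genes described here are 10 dual-specificity phosphatases (DUSPs) that act on mitogen-activated protein kinases (MAPKs): Dusp1, Dusp2, Dusp4, Dusp5, Dusp6, Dusp7, Dusp8, Dusp10, Dusp14 and Dusp16. They are 10 of the 55573 genes listed in the deposited tables, and each was matched to 1 Ensembl identifier of those tables by its symbol. In the mm9 annotation Dusp8 has a second identifier, given beside its values. The set was chosen from the family with earlier results of these same libraries known, including the fold-changes between them. Differences between the libraries are therefore given as a description, without a test. RNA-seq was performed on mesenteric arteries of wild type C57BL/6 mice, 10 weeks old, with 1 library of arteries kept in 5 mM K+ solution (control) and 1 library of arteries depolarized with 60 mM K+ solution, each treatment labelled as 60 min. Each library was pooled from 2 mice. With 1 library per condition, no value has a replicate error. In the methods of the study, control tissue was taken from the distal side of ligated arteries. The rest of the same preparation was then perfused with 60 mM K+. Whether both libraries came from the same mice was not established here. A difference between mice therefore cannot be told apart from an effect of K+. Segment and time in solution may also differ and cannot be told apart from K+.

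MAPKs such as ERK, JNK and p38 are switched on when a MAPK kinase phosphorylates a threonine and a tyrosine in their activation loop. DUSPs remove both phosphates, and many DUSP genes are themselves transcribed in response to MAPK or Ca2+ signals, which makes them a negative feedback on the pathway. Dusp1, Dusp2, Dusp4 and Dusp5 encode inducible phosphatases of the nucleus, Dusp6 and Dusp7 encode cytoplasmic phosphatases directed at ERK, and Dusp8, Dusp10 and Dusp16 encode phosphatases directed at the stress kinases JNK and p38. Dusp14 encodes a small atypical member that lacks the kinase-interaction domain of the others. In arterial smooth muscle these kinases are known for their part in growth, inflammation and responses to stretch.

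The control library held 10480918 counted reads and the depolarized library held 11289598. Log2(fold-change) denotes 60 mM K+ over 5 mM K+ after TMM scaling (the trimmed mean of M-values of edgeR), with a 95% exact (Clopper-Pearson) interval. No molecular identifiers were counted, so that an interval holds the counting error of reads and no other error. CPM stands for reads per 1000000, with the library size scaled by TMM. FPKM, the deposited level per gene length, was scaled by total reads instead. Smooth muscle markers were abundant in both libraries (8 of 8 genes with at least 10 reads), with a summed level of 36884 CPM in the control and 40487 CPM in the depolarized library. The summed levels were 3310 and 4548 CPM for 9 endothelial genes, 4038 and 3714 CPM for 6 fibroblast genes, 125 and 104 CPM for 5 adipocyte genes, 109 and 101 CPM for 4 Schwann cell genes, and 58.8 and 55.1 CPM for 11 macrophage genes. For 8 lymphocyte genes they were 0.799 and 0.762 CPM, and for 5 neutrophil genes 0.178 and 0.0952 CPM. A sum does not show genes of a list that differ in direction. Within the endothelial list log2(fold-change) ranged from -1.10 (Kdr) to 1.10 (Nos3). Within the adipocyte list it ranged from -2.39 (Plin1, 101 and 18 reads) to 3.27 (Lep, 1 and 9 reads). Heat shock genes (381 and 2740 CPM, 4 of 4 above 2-fold) and pancreatic genes (11.4 and 39.5 CPM, 4 of 5 with at least 10 reads above 2-fold, Prss1 at 0 reads in both) were higher in the depolarized library. Of all genes with at least 10 reads, 5.54% were above 2-fold. The part of the heat shock and pancreatic genes in the results below was not tested. In such bulk tissue, fewer cells of a type and less RNA per cell cannot be told apart.

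Promoters of these genes are shown because the study concerns CREB, which binds the cAMP response element (CRE). RefSeq promoter windows on GRCm38.p6, from 250 bases before to 50 bases after the transcript start, were at hand for 9 of the 10 genes, all but Dusp4. Both strands were searched for the full CRE (TGACGTCA), for the shorter CRE (TGACG), which lies inside every full CRE, for the AP-1 site (TGANTCA), for the CArG box, which binds serum response factor, and for the NF-kB site. The 250 bases before the start are printed 5′ to 3′ on the strand of the gene for the 3 members that hold a full CRE or a CArG box, with these motifs and the shorter CRE in capitals. They lie at chr17:26508473-26508722 (minus strand) for Dusp1, at chr19:53528895-53529144 (plus strand) for Dusp5 and at chr7:142095285-142095534 (minus strand) for Dusp8.
Dusp1: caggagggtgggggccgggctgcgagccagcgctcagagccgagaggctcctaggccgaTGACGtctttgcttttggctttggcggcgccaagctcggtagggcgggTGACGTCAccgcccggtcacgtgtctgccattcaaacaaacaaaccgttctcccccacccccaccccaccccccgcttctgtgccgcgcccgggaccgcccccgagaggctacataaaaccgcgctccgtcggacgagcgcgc
Dusp5: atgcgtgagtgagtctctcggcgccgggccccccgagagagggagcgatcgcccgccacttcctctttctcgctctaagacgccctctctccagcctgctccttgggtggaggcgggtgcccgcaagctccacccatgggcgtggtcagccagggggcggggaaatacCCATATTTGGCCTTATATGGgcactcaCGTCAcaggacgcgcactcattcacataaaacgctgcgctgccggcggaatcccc
Dusp8: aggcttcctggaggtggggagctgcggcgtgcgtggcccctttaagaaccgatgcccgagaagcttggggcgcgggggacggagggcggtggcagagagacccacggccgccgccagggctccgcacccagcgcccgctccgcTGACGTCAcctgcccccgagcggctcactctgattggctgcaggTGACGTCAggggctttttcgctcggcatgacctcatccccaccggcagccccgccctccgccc

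The full CRE was found in 2 of 9 windows, those of Dusp1 and Dusp8, and in 1.79% of the 32851 promoters in the table. The site of Dusp1 starts 143 bases before the transcript start, with a shorter CRE 191 bases before it. Dusp8 holds the full site at 107 and at 63 bases before the start. The shorter motif was found in 5 of 9 windows, those of Dusp1, Dusp2, Dusp5, Dusp8 and Dusp16, and in 20.8% of all promoters. In Dusp2 it lies just inside the transcript, from base 6. A pair of adjacent CArG boxes, starting 82 and 72 bases before the start, was found in Dusp5, and 1.63% of all promoters hold at least 1 such box. No AP-1 site and no NF-kB site was found in the 9 windows, where 7.81% and 8.46% of all promoters hold one. The windows of Dusp6, Dusp7, Dusp10 and Dusp14 held none of these motifs. A match describes the letters of this window and shows no binding.

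**Figure D1:**
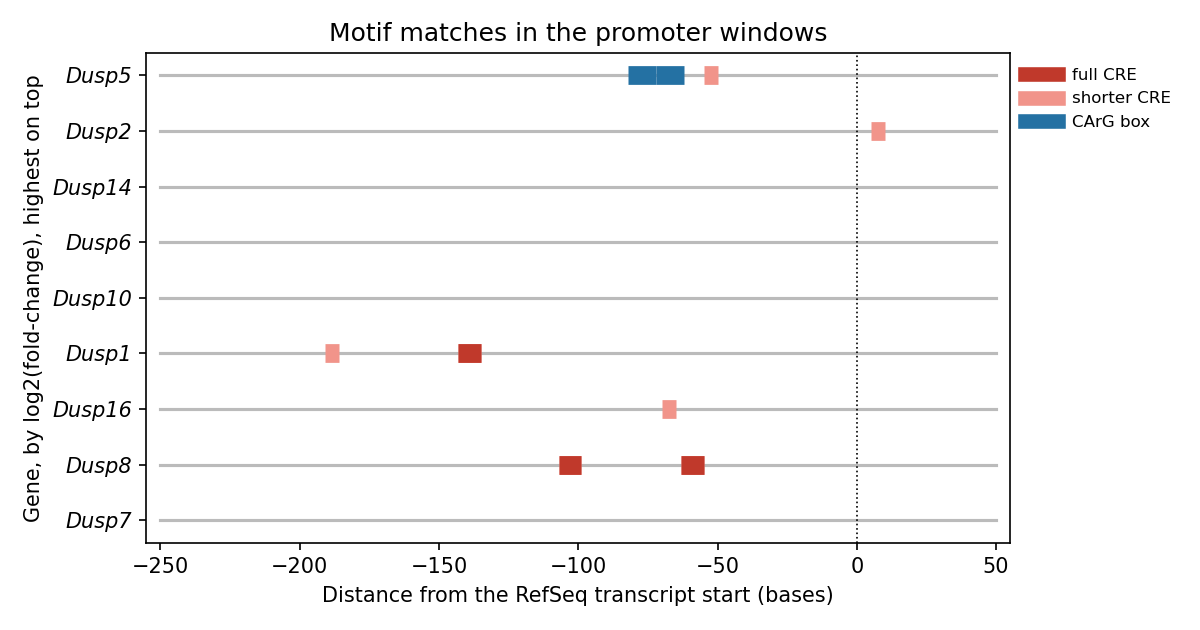
Matches to the full CRE, the shorter CRE and the CArG box in the promoter windows of 9 phosphatase genes, ordered from the highest log2(fold-change) at the top; the x axis gives the distance in bases from the RefSeq transcript start. The full CRE lies in Dusp1 (log2(fold-change) 0.27) and Dusp8 (0.04), and the CArG boxes lie in Dusp5 (2.51).

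The depolarized library had more reads of Dusp5, Dusp2 and Dusp14 by over 2-fold, and no member was lower by as much. Of the 10 members, each of which had 10 or more reads over the pair of libraries, 3 had a log2(fold-change) above 1 and 0 had one below -1. Over all 14829 genes with as many reads, 5.54% were above 1 and 5.86% below -1. These are 822 and 869 genes, and with total-count scaling there were 601 above and 1285 below. Since the members were picked with this contrast known, nothing is read from the difference between these shares. The counting interval lay above 0 for 6 members, included 0 for 4 and lay below 0 for 0. Scaling by total reads lowers every log2(fold-change) by 0.21, which left 5 intervals above 0, put 1 below 0 (Dusp8) and turned Dusp8 and Dusp16 from positive to negative. The median log2(fold-change) was 0.41 over the 10 members and -0.0047 over all genes tested.

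**Figure D2:**
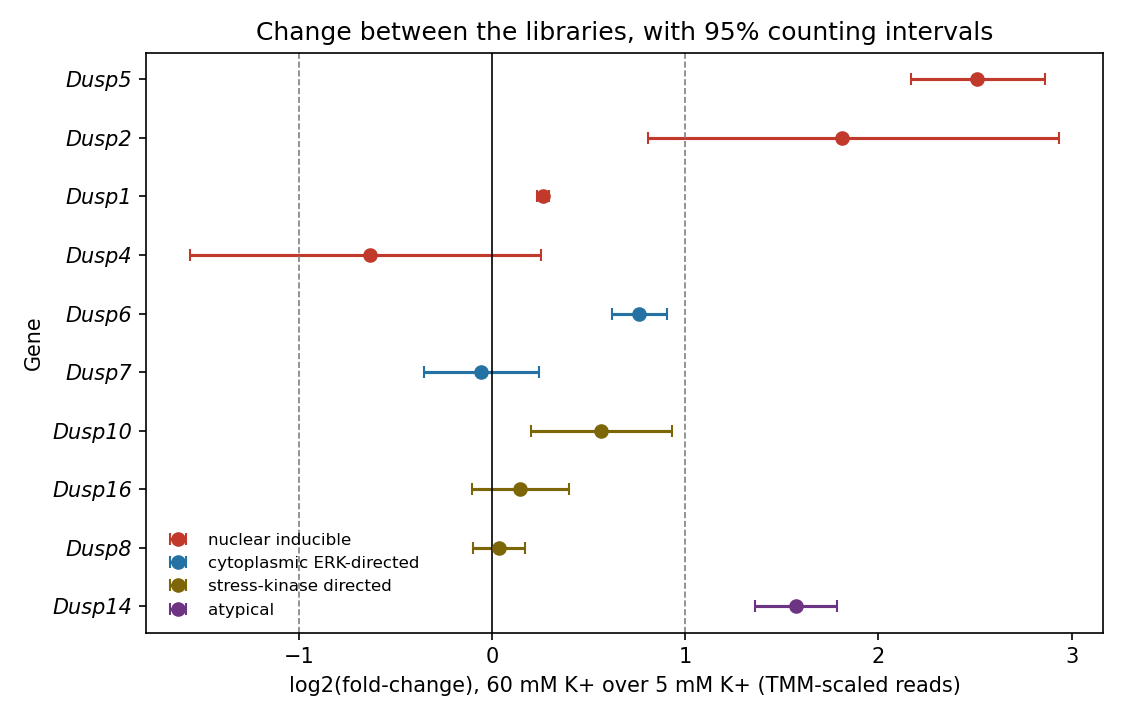
Log2(fold-change) of each phosphatase gene, 60 mM K+ over 5 mM K+ on the x axis, with 95% counting intervals as bars and colors for the classes of the family; dashed lines mark 2-fold differences. Dusp5 (2.51), Dusp2 (1.81) and Dusp14 (1.57) lie to the right of the upper line, and the interval of Dusp2 crosses it.

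Among the inducible nuclear phosphatases, Dusp5, which is directed at ERK, showed the largest difference of the 10 genes. Dusp5 (ENSMUSG00000034765, chromosome 19, 53603599 to 53616921 on mm9) had 83 reads in the control and 440 after depolarization. After scaling the level was 5.69-fold higher in 60 mM K+, with log2(fold-change) at 2.51 and its interval from 2.17 to 2.86. The promoter window of Dusp5 holds the pair of CArG boxes and a shorter CRE and, like most of the 9 windows, no full CRE. A part of these motifs in the difference was not tested. Dusp2 (ENSMUSG00000027368, chromosome 2, 127161895 to 127164112), known from activated lymphocytes and myeloid cells, had 11 and 36 reads. Its log2(fold-change) was 1.81 with a broad interval, from 0.81 to 2.93, so that a difference below 2-fold lies within counting error. Lymphocyte and neutrophil genes were near 0 reads in both libraries. The macrophage list had 0 of 10 measured genes above 2-fold and 1 below, Itgam, with 9 and 1 reads, beside 5.54% and 5.86% of all genes. Of these 10 genes, 4 had a positive log2(fold-change), beside 49.6% of all genes tested. Which cells held the Dusp2 reads was not tested.

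Dusp1 encodes MKP-1, the founding member of the family, which acts on p38, JNK and ERK. Dusp1 (ENSMUSG00000024190, chromosome 17, 26642535 to 26645464) was by far the most abundant of the 10 genes, with 15847 reads in 5 mM K+ and 17750 in 60 mM K+. These are 0.151% and 0.157% of all counted reads. The log2(fold-change) was 0.27 (0.23 to 0.30), a 1.20-fold difference, and with total-count scaling it was 0.056. Dusp4 (ENSMUSG00000031530, chromosome 8, 35870351 to 35882948), which encodes MKP-2, had 30 and 18 reads, the fewest of the 10 genes in the depolarized library, and log2(fold-change) was -0.64 (-1.57 to 0.25). The 4 genes of this class thus ranged from -0.64 to 2.51. Summed over the class, reads were 15971 and 18244, and log2(fold-change) of this sum, most of it Dusp1, was 0.29 (0.26 to 0.32). Without Dusp1 the sums were 124 and 494 reads, most of them from Dusp5 (83 and 440), at 2.10 (1.81 to 2.39).

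The 2 cytoplasmic phosphatases directed at ERK differed from each other. Dusp6 (ENSMUSG00000019960, chromosome 10, 98725865 to 98730122), encoding MKP-3 and often used as a readout of ERK activity, had 670 reads in 5 mM K+ and 1059 in 60 mM K+. The difference was 1.70-fold, or 0.76 (0.62 to 0.90) as log2(fold-change). Dusp7 (ENSMUSG00000053716, chromosome 9, 106270963 to 106278055) had 203 and 182 reads, and here log2(fold-change) was -0.06 (-0.35 to 0.24). The intervals of this pair did not overlap.

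Summed over the class, the phosphatases directed at JNK and p38 had 1297 reads in 5 mM K+, 1306 in 60 mM K+ and a log2(fold-change) of 0.11 (-0.00057 to 0.22) for the sum. Total-count scaling turned the direction of this sum, to -0.10. Dusp8 (ENSMUSG00000037887, chromosome 7, 149265395 to 149281748) had 929 and 888 reads, at 0.04 (-0.10 to 0.17). In the annotation, a second gene entry named Dusp8 (ENSMUSG00000043186) lies on the same strand and shares 1186 exon bases with it. That entry is not among the genes listed in the deposited counts. Since the annotation behind the counts is not known, the reads of Dusp8 remain uncertain. The promoter window of Dusp8 holds a pair of full CREs. Dusp16 (ENSMUSG00000030203, chromosome 6, 134665488 to 134742643), which encodes MKP-7, had 257 and 265 reads, at 0.15 (-0.11 to 0.40). Dusp10 (ENSMUSG00000039384, chromosome 1, 185837181 to 185899515), which encodes MKP-5, was the member of this class whose interval lay above 0, with 111 and 153 reads, at 0.56 (0.20 to 0.93). With total-count scaling Dusp10 was at 0.36, and its interval then included 0. A gene on the opposite strand, 1700056E22Rik, overlaps Dusp10 without sharing exon bases and had 2 reads in each library.

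The atypical gene Dusp14 (ENSMUSG00000018648, chromosome 11, 83861543 to 83882763) had 253 reads in 5 mM K+ and 701 in 60 mM K+. Its level was 2.97-fold higher, with log2(fold-change) at 1.57 (1.36 to 1.78). Dusp14 and Dusp5 are the 2 members whose whole counting interval lay above 1.

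Ratios between members do not depend on how libraries are scaled. Relative to Dusp1, the number of Dusp5 reads was 4.73-fold higher in the depolarized than in the control library (exact interval 3.73 to 6.06), that of Dusp2 was 2.92-fold higher (1.45 to 6.37), that of Dusp14 was 2.47-fold higher (2.14 to 2.87) and that of Dusp6 was 1.41-fold higher (1.28 to 1.56). The ratio was below 1 with an interval that did not reach 1 for Dusp4 at 0.536 (0.281 to 0.993), Dusp7 at 0.800 (0.651 to 0.984) and Dusp8 at 0.853 (0.776 to 0.939). For Dusp10, at 1.23 (0.957 to 1.59), and Dusp16, at 0.921 (0.771 to 1.10), the interval included 1. The interval of Dusp5 lay above that of Dusp14, and that of Dusp14 above that of Dusp6, while the interval of Dusp2 overlapped with those of Dusp5, Dusp14 and Dusp6.

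Levels of different genes were compared as FPKM. In the control library Dusp1, at 1013 FPKM, stood at place 59 among all listed genes. The next members were Dusp6 at 37.7, Dusp8 at 31.3, Dusp14 at 19.3, Dusp7 at 15.0, Dusp16 at 10.7, Dusp10 at 6.02, Dusp5 at 3.20, Dusp4 at 1.04 and Dusp2 at 0.884 FPKM. The neighbors Dusp14 and Dusp7, and Dusp4 and Dusp2, did not differ beyond counting error. In the depolarized library the order was Dusp1 at 1053, Dusp6 at 55.3, Dusp14 at 49.6, Dusp8 at 27.8, Dusp5 at 15.8, Dusp7 at 12.5, Dusp16 at 10.2, Dusp10 at 7.71, Dusp2 at 2.69 and Dusp4 at 0.582 FPKM.

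Between the libraries Dusp5 thus moved from place 8 to place 5 among the 10 genes, and from place 10518 to place 5514 among all listed genes. Dusp14 moved from place 4 to place 3, and from 5256 to 2197 among all genes. In 60 mM K+, the intervals of Dusp6 and Dusp14 overlapped, as did those of Dusp5 and Dusp7, Dusp7 and Dusp16, and Dusp16 and Dusp10. Dusp1 made up 89.0% of the summed FPKM of the 10 genes in the control and 85.3% in the depolarized library. The sum without Dusp1 was 125 FPKM and 182 FPKM.

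**Figure D3:**
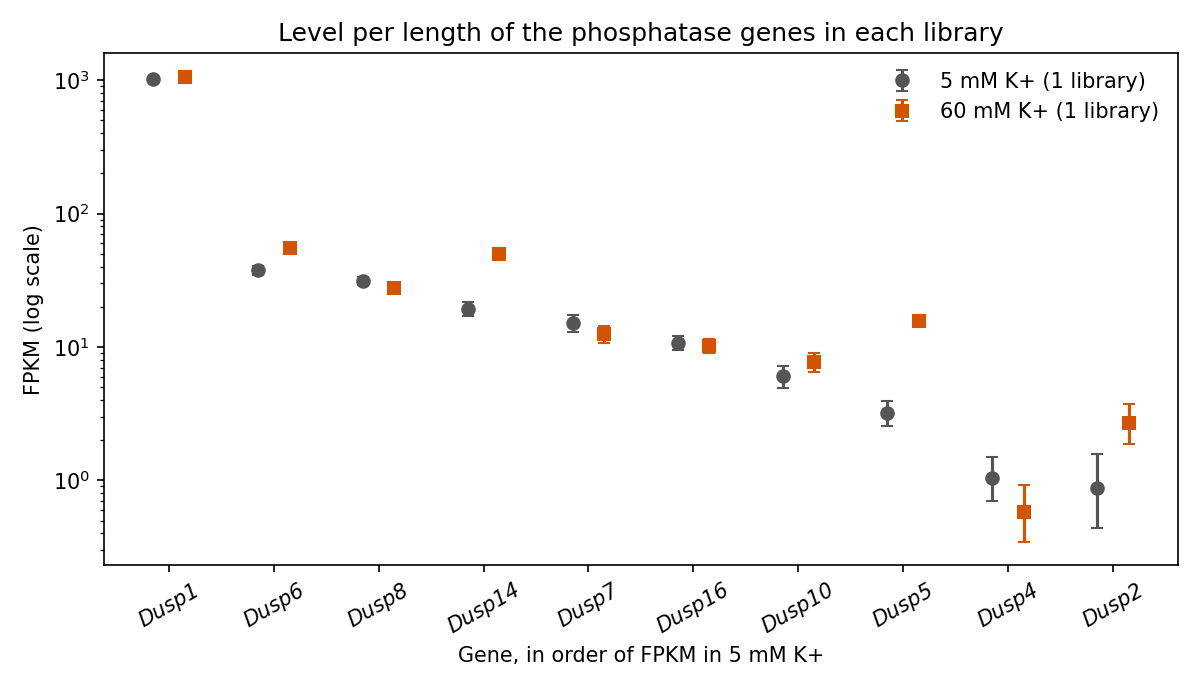
FPKM of each phosphatase gene (log scale) in the control library (grey circles) and the depolarized library (orange squares), with 95% counting intervals as bars, ordered by the control level. Dusp1 lies far above the others in both libraries (1013 and 1053 FPKM), and Dusp5 (3.20 and 15.8 FPKM) and Dusp14 (19.3 and 49.6 FPKM) show the widest gaps among the genes above 3 FPKM.

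No gene of the same family outside the 10, among those with at least 10 reads, was above 2-fold in 60 mM K+. Over all genes tested, 5.54% were above 1 in log2(fold-change) and 5.86% below -1. Since the 10 were picked with this contrast known, nothing is read from their difference from these relatives. Dusp9, the remaining gene of the typical MAPK phosphatases, had 10 reads in 5 mM K+ and 3 in 60 mM K+, and its log2(fold-change) was -1.64 (-4.13 to 0.32). Of 15 other atypical DUSP genes and relatives, 12 had at least 10 reads, and 0 were past 2-fold in either direction, with a median log2(fold-change) of -0.03. With total-count scaling Dusp27 was below -1, at -1.04. The farthest from 0 were Dusp15 at 0.88 (7 and 12 reads), Dusp27 at -0.83 (147 and 77 reads) and Dusp18 at 0.81 (84 and 137 reads). The list of other MAPK inhibitors holds 15 genes, of which 14 were matched and 12 had at least 10 reads. None passed 2-fold, and the median was 0.10, which turned negative with total-count scaling. Spry4, a Sprouty inhibitor of receptor signaling to ERK, was at 0.74, Spred2 at 0.62, and the MAPK-binding tyrosine phosphatase Ptprr at 0.38. Ptpn7, a phosphatase of lymphocytes that also binds MAPKs, had 3 and 0 reads.

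Most genes of the kinases that DUSPs act on lay within 2-fold between the libraries, as did most of all genes tested (5.54% above, 5.86% below). Of 14 MAPK genes, 11 had at least 10 reads and 1 was above 2-fold, Mapk4, an atypical MAPK, with 67 and 134 reads and log2(fold-change) at 1.10 (0.89 with total-count scaling). Mapk3, encoding ERK1, was at 0.10 (-0.11 with total-count scaling). Mapk8, encoding JNK1, was at -0.15, and Mapk14, encoding p38α, was at -0.10. After Mapk4, the farthest from 0 were Mapk6 at 0.68 and Mapk7, encoding ERK5, at -0.56. The median log2(fold-change) of the list was -0.10.

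Above the MAPKs, all 7 MAPK kinase genes had a positive log2(fold-change), with a median of 0.29, although with total-count scaling Map2k4 and Map2k7 turned negative, at -0.09 and -0.07. Map2k3 and Map2k6, both kinases of p38, were at 1.15 (945 and 1955 reads) and 1.02 (38 and 72 reads), and Map2k1, a kinase of ERK, was at 0.48. These 2 kinases of p38 were the genes above 2-fold in this list, and with total-count scaling they were at 0.94 and 0.81. Of 18 genes for Raf kinases and MAPK kinase kinases, 16 had at least 10 reads and 1 passed 2-fold. This was Map3k8, the kinase TPL2 of the ERK pathway, at 1.41 (143 and 354 reads), followed by Map3k14 at 0.78 and Map3k6 at 0.74, with a list median of -0.05. Of 11 kinases activated by MAPKs, 10 were measured and 1 passed 2-fold. Mapkapk2, the p38-activated kinase MK2, had 1614 and 3147 reads and was at 1.06 (0.86 with total-count scaling), Mapkapk5 was at 0.82 and Rps6ka4 at 0.26.

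The list of early response genes and Ets factors, many of them transcribed through MAPK signaling, had the most genes above 2-fold. Of 21 genes, all measured, 7 were above 2-fold and 0 below. Of these 21 genes, 20 had a positive log2(fold-change), beside 49.6% of all genes tested, with a list median of 0.71. With total-count scaling 6 were above 2-fold and 19 were positive, with Elk3 turning negative. The largest differences were those of Egr4 at 2.49 (8 and 42 reads), Fosl1 at 1.82 (20 and 66 reads) and Ets1 at 1.78 (354 and 1135 reads). Some early response genes were already abundant in the control library, as was Dusp1. Fos, Junb and Egr1, named for their high levels after the values were seen, had 2681, 1893 and 653 FPKM in 5 mM K+ and log2(fold-change) of 0.42, 0.67 and 0.35. Over the pathway lists together, 12 of 90 measured genes were above 2-fold and 1, Dusp9, was below -1 in log2(fold-change), beside 5.54% and 5.86% of all genes. With total-count scaling 7 list genes were above and 2 below. The lists were chosen with earlier results of these data known, so nothing is read from the difference between these shares.

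**Figure D4:**
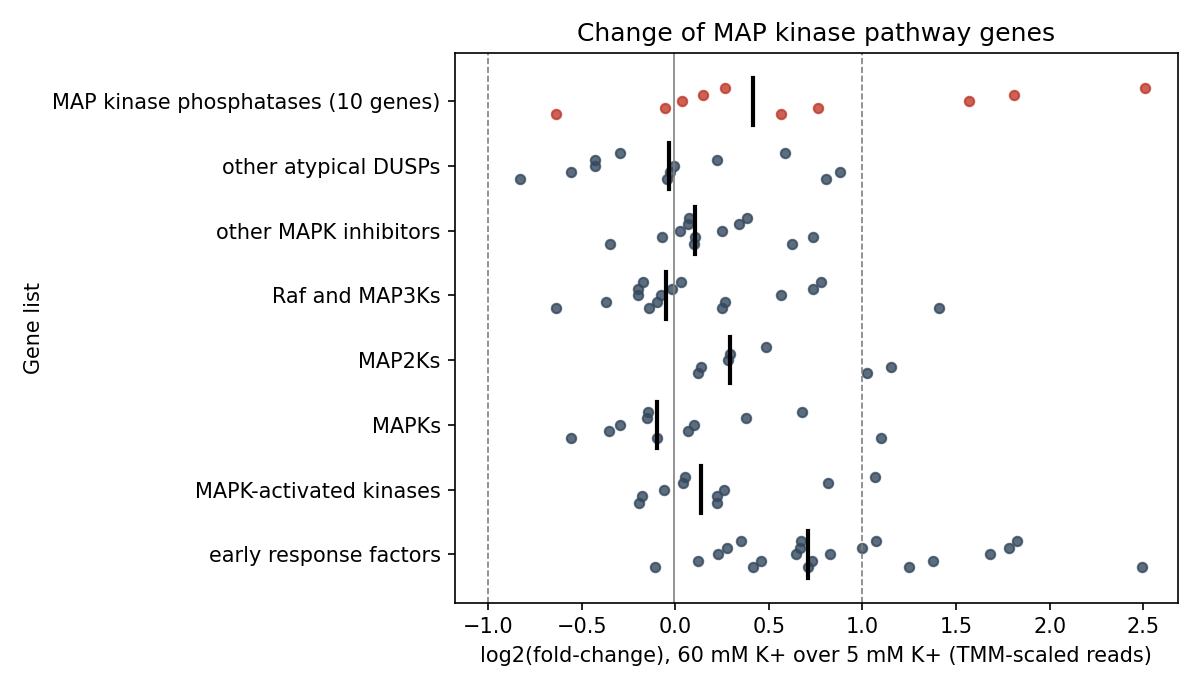
Log2(fold-change) of genes with at least 10 reads in the 10 MAPK phosphatases (red) and in 7 lists of the MAPK pathway (dark points), 60 mM K+ over 5 mM K+; black bars mark list medians, the grey line the median of all genes and dashed lines 2-fold differences. Medians were 0.41 for the phosphatases, 0.71 for early response genes and -0.10 for the MAPKs, and Dusp9 (-1.64), a list of its own, is not drawn.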

How the data were processed

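Mesenteric artery RNA was sequenced in 2 libraries, 1 per K+ concentration. The authors used TopHat2 to align the reads to mm9. They deposited unscaled read counts for each Ensembl gene beside FPKM values. The submitters' processing notes list TopHat2 2.0.12, HTSeq 0.6.1 and edgeR 3.0.8, and builds mm8 and mm9. The annotation used is not given in the sources used here. GENCODE vM1 (mm9), the source of gene positions, holds 32601 of the 55573 identifiers. Counts divided by FPKM had the same ratio between libraries for all genes (1.08, the ratio of total reads).

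TMM factors (1.07 and 0.930) came from edgeR 4.0.16 (R 4.3.3). Genes with 10 or more reads over both libraries were described, and those with an absolute log2(fold-change) above 1 were taken as different by over 2-fold. A count of 0 was raised to 3 reads (0.266 and 0.286 CPM). No test was run, since 1 library per condition leaves none. The results were recomputed with DESeq2 1.42.0 size factors, total-count or upper-quartile scaling, FPKM with pseudocounts of 0.1 and 1, other read minimums, thresholds and floors. The interval code was tested on simulated data.

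The members and gene lists were chosen with earlier results of these data known. Named are the 10 members, Dusp9, the 3 genes farthest from 0 in each other pathway list, Mapk3, Mapk8, Mapk14 and Ptpn7, and 1 further gene of this rule is not reported here. Itgam was named after its values were seen, as were Kdr, Nos3, Plin1, Lep, Prss1, Map2k4, Map2k7, Elk3, Fos, Junb and Egr1. The length behind FPKM was below the annotated exon length for 8 members (for Dusp16, 2297 and 7653 bases).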

Additional observations from a re-analysis of the deposited data

How the results depend on the processing

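No paired analysis was possible because there was 1 library per condition, and none could be left out. Dusp5 and Dusp14 lay above a log2(fold-change) of 1 under every scaling, read minimum and pseudocount tried, and with the whole counting interval required to lie above 1. Dusp2, with 47 reads in all, did not with FPKM and a pseudocount of 1 (0.97), with at least 50 reads or with the whole interval required. Over the alternatives Dusp5 ranged from 1.996 to 2.51, Dusp14 from 1.32 to 1.57 and Dusp1 from 0.056 to 0.27. Of 50 alternative values of single members, 37 stayed within the counting interval and 13 did not, and no member above 2-fold changed direction. A threshold of 2 left 1 member, Dusp5.

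Total-count scaling moved the class sums to 0.085 (nuclear), 0.40 (cytoplasmic) and -0.10 (stress-kinase), and the pathway lists to 7 genes above and 2 below. Upper-quartile scaling gave 0.25 for the nuclear class. FPKM with a pseudocount of 0.1 gave 497 genes above and 1037 below among all genes and 7 above in the pathway lists, and with a pseudocount of 1 it gave 240 above and 193 below, with 7 and 0 in the lists. All genes above and below numbered 822 and 869, compared with 412 and 211 with at least 50 reads, 263 and 73 with the whole interval required, and 188 and 208 at a threshold of 2. In these last 3 settings 0 list genes were below, and at a threshold of 2 the lists had 1 gene above. Fewer genes tested or a stricter threshold account for the lower counts in these 3 settings by construction. With total-count or upper-quartile scaling each value shifts by a constant. With an FPKM pseudocount the shift differs between genes. A pseudocount of 1 took Dusp2 from 1.81 to 0.97 and Dusp1 from 0.27 to 0.056. With CPM per kilobase of annotated exon, 8 of 10 members kept their place in the order of levels in both libraries, with Dusp10 and Dusp16 exchanged. Leaving out the bases after the transcript start removed the shorter CRE of Dusp2, so that 4 members had one.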
